A study of Danio rerio with 21 samples.

Results

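The 10 genes of the zebrafish epicardium and of retinoic acid synthesis described here, of 19260 genes named on the array, were followed through the regeneration of the heart. They were chosen by name, as the array rows whose symbol was tcf21, tbx18, wt1a, wt1b, postnb, aldh1a2, rdh10a, rdh10b, cyp26b1 or raraa. Each had a single row, called a feature, and all 10 passed the signal filter (log2 signal above 6 in at least 1 array), as did 11687 named genes. Adult TU strain zebrafish aged 10 to 11 months gave 21 pools of 5 heart ventricles each, in 7 groups of 3 pools. One group held uninjured hearts, called controls. The others were taken after cryoinjury, in which a part of the ventricle wall is frozen, at 4 hours post-injury (4 hpi) or at 1, 3, 7, 14 or 90 days post-injury (dpi). Injured ventricles were pooled whole, injured and spared tissue together, no agent or allele is named for any group, and a supplementary table of the study names the controls as sham although the labels name them as uninjured. The 3 pools of a group were biological replicates by their labels.

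The epicardium is the thin cell layer that covers the heart. In the zebrafish, injury activates it, and its cells divide, spread over the wound and give rise to fibroblasts and to the mural cells that wrap vessels. Retinoic acid is made from vitamin A in consecutive oxidations, of retinol to retinal by retinol dehydrogenases such as the Rdh10 enzymes, and of retinal to retinoic acid by aldehyde dehydrogenases such as Aldh1a2. It acts through nuclear receptors and is cleared by Cyp26 enzymes, and in the injured zebrafish heart its synthesis is known from epicardium and endocardium.

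The values were log2 signals, so a difference of 1 is a doubling. They compare a gene between pools and not one gene with another, and in bulk RNA fewer cells of a type and less RNA per cell cannot be told apart. Each time was set against the controls with limma, and a change was called at a Benjamini-Hochberg adjusted p under 0.05 over the 35783 tested features. All comparisons with controls share the same 3 control pools. The median signal of an array lay between 5.138 and 5.196, and values at or below it are near background, where a fold change is uncertain. A gene low in controls passes the signal filter only through injured pools, which favours such genes in counts of higher genes. Among these were the member cyp26b1 and, in the lists below, bnc1, lum, loxa and crabp2b. Pools of a group correlated at r = 0.952 to 0.977 over the tested features. The summed signal of 12 cardiomyocyte markers was log2 15.7 to 15.8 in controls, and of the 4 liver markers on the array hp, the gene for the plasma protein haptoglobin, was the 1 that passed the signal filter. The podocyte marker nphs1, of a kidney cell that also expresses wt1 genes, stayed at 4.23 to 4.87.

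Among the members, 3 were higher and 3 lower than in controls at 4 hpi, when 21.3% of all tested features were called higher and 17.5% lower. At 1 dpi 5 were higher and 2 lower, beside 22% and 16.5% of features. At 3 dpi 7 were higher and 0 lower, beside 20.7% of features higher and 14.9% lower, and the median change of the members was 1.08 against 0.015 over all tested features. At 7 dpi 5 were higher and 0 lower (14.5% and 8.02% of features). Of the members, 3 were higher and 0 lower at 14 dpi (9.39% and 4.57%), and 1 was higher and 1 lower at 90 dpi (11.2% and 7.68%), so that the share of members called was nearest to that of all features at the last time. The 90 dpi count came from cyp26b1 and rdh10b, and it fell to 1 without control replicate 1 or without 90 dpi replicate 2, either of which ended the call of rdh10b.

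**Figure D1:**
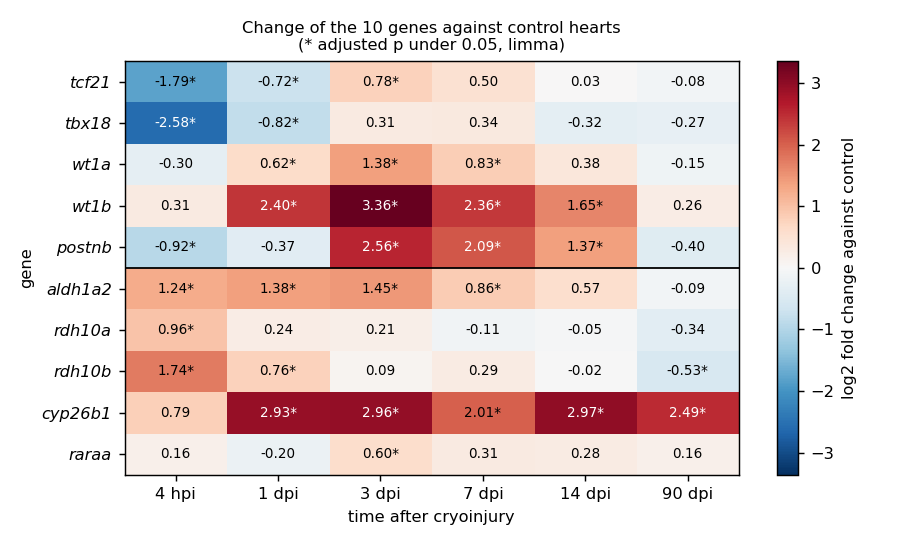
Log2 fold change of each of the 10 genes against control hearts (colour and number) at 6 times after cryoinjury, with the epicardial genes above the line and the retinoic acid genes below it, from 3 pools per group, an asterisk marking an adjusted p under 0.05 (limma). The values for tcf21 and tbx18 at 4 hpi are -1.79 and -2.58, whereas those for aldh1a2 and rdh10b are 1.24 and 1.74.

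The epicardial transcription factors tcf21 and tbx18 fell within hours. Tcf21 marks the epicardium of the adult zebrafish heart and its descendants, and Tbx18 is a T-box factor of the epicardium. The tcf21 signal was 8.59, 8.68 and 8.84 in the control pools, 7.28, 6.96 and 6.51 at 4 hpi and 8.33, 7.87 and 7.76 at 1 dpi. It reached 9.53, 9.59 and 9.34 at 3 dpi and was 8.91, 9.35 and 9.36 at 7 dpi, 8.40, 8.84 and 8.96 at 14 dpi, then 8.72, 8.86 and 8.30 at 90 dpi. Every 4 hpi and 1 dpi pool lay below the lowest control pool, and every 3 dpi and 7 dpi pool lay above the highest one. The log2 fold change was -1.79 ± 0.21 (SE) at 4 hpi (adjusted p = 5.22e-06), or 3.46-fold lower, and -0.72 ± 0.21 at 1 dpi (adjusted p = 0.0122). At 3 dpi tcf21 was 0.78 ± 0.21 higher (adjusted p = 0.00797), and the value of 0.50 at 7 dpi missed the threshold (adjusted p = 0.103). The 1 dpi call was lost without 1 dpi replicate 3 (-0.61, adjusted p = 0.0594).

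The tbx18 signal was 8.98, 8.52 and 8.57 in controls and 6.44, 6.29 and 5.61 at 4 hpi, a fall of the same kind. It read 8.10, 7.58 and 7.93 at 1 dpi, and from 3 to 90 dpi the pools lay between 8.12 and 9.35. They overlapped with the controls at 3, 7 and 90 dpi, and at 14 dpi the highest pool, at 8.49, was just under the lowest control. The change was -2.58 ± 0.24 at 4 hpi (adjusted p = 4.51e-07), or 5.96-fold lower, and -0.82 ± 0.24 at 1 dpi (adjusted p = 0.0109). The later changes ran from -0.32 to 0.34 and none was called. The 1 dpi call was lost without control replicate 1 (-0.68, adjusted p = 0.0551) and without 1 dpi replicate 2 (-0.68, adjusted p = 0.0567).

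The wt1 genes, which encode copies of the Wilms tumour transcription factor, were not called at 4 hpi and rose from 1 dpi. In the zebrafish heart wt1b is known from activated epicardium and from some macrophages. Its signal was 6.52, 6.59 and 7.29 in controls, 7.04, 7.08 and 7.22 at 4 hpi, and 9.10, 9.26 and 9.23 at 1 dpi. The 3 dpi pools read 10.1, 10.2 and 10.2, the 7 dpi pools 9.11, 9.46 and 8.91, the 14 dpi pools 8.37, 8.42 and 8.56, and the 90 dpi pools 7.30, 7.09 and 6.79. All pools from 1 to 14 dpi lay above all control pools, with the 3 dpi pools highest, while those at 4 hpi and 90 dpi overlapped with controls. The change was 2.40 ± 0.18 at 1 dpi (adjusted p = 2.34e-08), 3.36 ± 0.18 at 3 dpi (adjusted p = 1.05e-09), or 10.3-fold, 2.36 at 7 dpi and 1.65 at 14 dpi (adjusted p = 2.60e-05). Control replicate 3 was the highest control for wt1b, and without it the changes at 4 hpi (0.56, adjusted p = 0.0120) and at 90 dpi (0.51, adjusted p = 0.0489) were called as well.

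The wt1a signal moved along a similar course over a smaller range. It was 6.49 to 6.68 in the control pools, 6.46, 6.33 and 6.00 at 4 hpi, 7.53, 6.95 and 7.04 at 1 dpi, and 7.89 to 8.004 at 3 dpi. The 7 dpi pools read 7.46, 7.35 and 7.35, the 14 dpi pools 7.09, 6.70 and 7.03, and the 90 dpi pools 6.29, 6.60 and 6.35. The pools from 1 to 14 dpi lay above the controls. The change was 0.62 ± 0.16 at 1 dpi (adjusted p = 0.00464), 1.38 at 3 dpi (adjusted p = 2.45e-06) and 0.83 at 7 dpi (adjusted p = 0.00118). At 14 dpi it was 0.38 and not called (adjusted p = 0.118). After quantile normalization of the arrays the 4 hpi value of -0.30 became -0.43 and was called (adjusted p = 0.0361).

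The difference between the paralogs, wt1b minus wt1a on the same array, was 0.24 ± 0.32 in controls (SD, n = 3). It grew by 1.78 at 1 dpi, 1.98 at 3 dpi, 1.54 at 7 dpi and 1.27 at 14 dpi. In each of these an exact permutation test gave p = 0.1 (two-sided, adjusted p = 0.2 over 12 tests of paralogs), the smallest p that 3 pools against 3 allow.

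Periostin b, from postnb, is a matrix protein secreted by fibroblasts that is known from the zebrafish heart after injury. Its signal was 5.59, 6.23 and 6.21 in controls, 5.11, 5.31 and 4.84 at 4 hpi and 6.35, 5.42 and 5.12 at 1 dpi. It then stood at 8.56, 8.55 and 8.58 at 3 dpi, 8.03, 8.17 and 8.10 at 7 dpi, 6.94, 7.96 and 7.22 at 14 dpi, before returning to 5.37, 5.90 and 5.55 at 90 dpi. The pools from 3 to 14 dpi were all above the controls, and the 4 hpi pools were below them at the level of the array median. The change was 2.56 ± 0.28 at 3 dpi (adjusted p = 1.74e-06), or 5.88-fold, 2.09 at 7 dpi (adjusted p = 6.02e-05) and 1.37 at 14 dpi (adjusted p = 0.00390). The fall of -0.92 ± 0.28 at 4 hpi (adjusted p = 0.0153) was no longer called without control replicate 2, control replicate 3 or 4 hpi replicate 3 (adjusted p = 0.0614, 0.0583 and 0.0613). The 1 dpi pools differed by more than 1 log2 unit, and without 1 dpi replicate 1 the change was -0.73 and called lower (adjusted p = 0.0355).

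**Figure D2:**
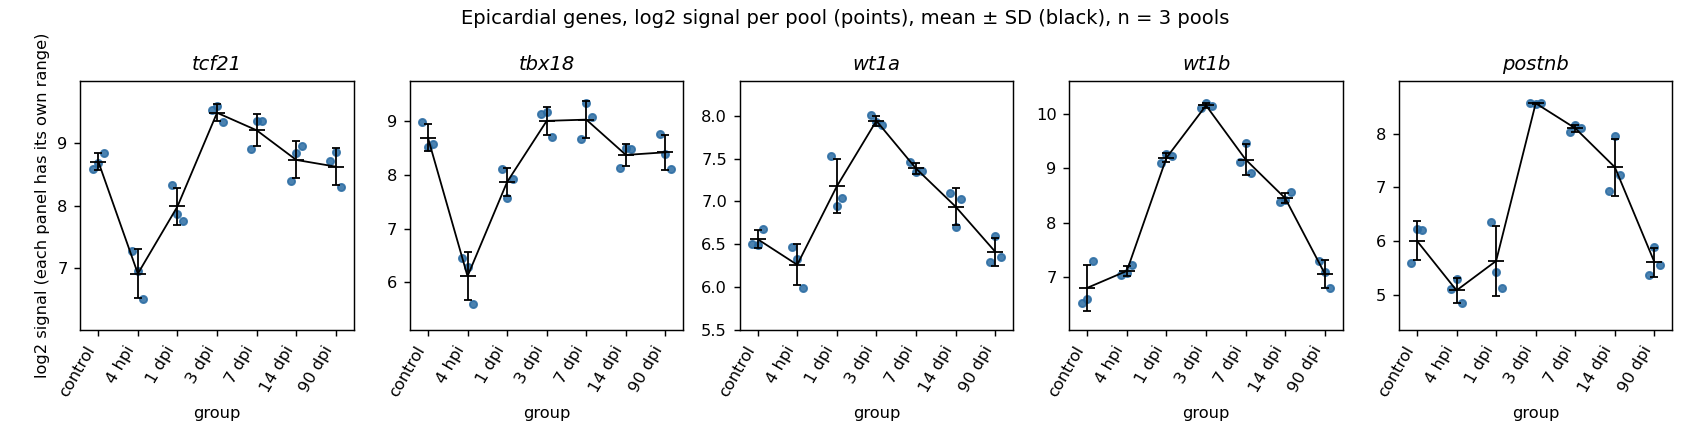
Log2 signal (vertical axes, each with its own range) of tcf21, tbx18, wt1a, wt1b and postnb in each pool of 5 ventricles (points) by group, with the group mean and SD in black (n = 3 pools). The 4 hpi pools of tcf21 and tbx18 sit below all their control pools, and the 3 dpi pools of wt1b, at 10.1 to 10.2, are its highest.

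Leukocyte and muscle markers moved over the same days. Beside the counts given here, 21.3% of all tested features were higher and 17.5% lower at 4 hpi, and 22% higher at 1 dpi. At 3 dpi 20.7% were higher and 14.9% lower, and at 90 dpi 11.2% were higher. The summed log2 signal of 13 leukocyte markers rose from 11.6 to 11.8 in controls to 13.5 to 13.9 at 1 dpi and 13.5 to 14.1 at 3 dpi, with 10 and 12 of the 13 called higher, and 9 of 13 were still higher at 90 dpi. The sum of 12 cardiomyocyte markers fell to 15.4 to 15.5 at 3 dpi, when 7 of the 12 were lower. The sum of 7 markers of the bulbus arteriosus and vascular smooth muscle rose from 11.3 to 11.7 in controls to 12.6 to 12.7 at 3 dpi, with 6 of 7 higher. Of these 7, acta2, tagln and myh11a are also in the list of fibroblast and mural genes below. The control means of the leukocyte markers mpx, cxcr3.2 and lyz were 4.46, 4.50 and 4.80, below the array median. So was that of the smooth muscle marker elnb, at 4.41. Those of ptprc (5.62) and elna (5.64) were under the filter value of 6. The signal filter favours such genes in counts of higher markers. Of 12 endothelial and endocardial markers, 3 were higher and 3 lower at 4 hpi, near the shares of all features, and 0 higher and 3 lower at 3 dpi. At 4 hpi, when tcf21 and tbx18 were lowest, the cardiomyocyte sum was 15.6 to 15.7 with 5 of 12 lower, the leukocyte sum 11.99 to 12.26 with 9 of 13 higher and 1 lower, and the smooth muscle sum 12.1 to 12.4 with 3 of 7 higher, cnn1b (1.40), myh11a (1.33) and mylka (0.78). The sum of 7 erythrocyte and thrombocyte markers was 11.5 to 12.3 in controls and 11.9 to 12.5 at 4 hpi. Of the 7, 2 were higher, near the share of all features. They were the thrombocyte integrin gene itga2b (2.09) and the erythropoietin receptor gene epor (0.92). Of 2 atrial markers, nppa was 0.45 higher at 4 hpi (adjusted p = 0.0305). It was also 0.50 higher at 3 dpi and 0.45 higher at 7 dpi, and the other, myh6, was called at no time. The liver marker hp was higher at 5 of 6 times, by 1.90 at 4 hpi, 2.11 at 1 dpi and 1.69 at 3 dpi, then 0.81 and 0.65 at 7 and 14 dpi. The other liver markers on the array, apoa1a, fgb and cp, reached at most 4.63, 5.01 and 4.88 in any pool. The part of these shifts in the members' changes was not tested.

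The order of levels over the groups was taken from the group means, so the steps between neighbours were chosen after the levels were seen. Their adjusted p (limma) is given as a description. The tcf21 order ran from 3 dpi down through 7 dpi, 14 dpi, control and 90 dpi to 1 dpi and 4 hpi. Only the last steps were called, from 90 dpi to 1 dpi (0.64, adjusted p = 0.0246) and from 1 dpi to 4 hpi (1.07, adjusted p = 0.000694). For tbx18 the 7 dpi, 3 dpi, control, 90 dpi, 14 dpi and 1 dpi groups followed each other without a called step, and 4 hpi lay 1.75 below 1 dpi (adjusted p = 1.87e-05). The wt1b order was 3 dpi, 1 dpi, 7 dpi, 14 dpi, 4 hpi, 90 dpi and control. Its steps from 3 to 1 dpi (0.96) and from 14 dpi to 4 hpi (1.34) were called, those between 1 and 7 dpi and among the last 3 groups were not, and that from 7 to 14 dpi is given below. In wt1a, ordered 3 dpi, 7 dpi, 1 dpi, 14 dpi, control, 90 dpi and 4 hpi, the 3 dpi level was 0.56 above 7 dpi (adjusted p = 0.0398), and no other step was called. In postnb, ordered 3, 7 and 14 dpi, control, 1 dpi, 90 dpi and 4 hpi, the 1 called step separated 14 dpi from control (1.37).

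Other markers known from the epicardium were in part lower at 4 hpi, like tcf21. Of 20 listed, 16 were on the array and 12 were tested. At 4 hpi 6 were lower and 1 higher, beside 17.5% and 21.3% of all features. The median change was then -0.48 against 0.048 over all tested features. At 1 dpi 4 were higher and 5 lower, beside 22% and 16.5% of features. The lower ones were podxl, jam2b, sema3d, sema3fb and cldn11a. The call of cldn11a (-1.44) was lost without control replicate 1 or 2 or 1 dpi replicate 2 or 3 (adjusted p from 0.0581 to 0.107). At 3 dpi 6 were higher and 1 lower, beside 20.7% and 14.9% of features. The junction gene jam2b fell by 1.89 at 4 hpi (adjusted p = 7.43e-06), the transglutaminase gene tgm2b fell by 1.29, and the semaphorin genes sema3fb and sema3d changed by -1.43 and -0.98, with jam2b and sema3fb at group means of 4.64 and 4.73, below the array median. At 3 dpi tgm2b was 1.87 higher, and the basonuclin genes bnc2 and bnc1 were 1.79 and 1.46 higher. The control signal of bnc1, 4.80 to 5.05, lies near background, and the gene passed the signal filter only through injured pools. The semaphorin gene sema3fb was lower at all 6 times, from -1.43 to -0.53, the last of which, at 90 dpi, was lost without 5 of the 6 pools in turn (adjusted p from 0.0577 to 0.148). The integrin gene itga4, which leukocytes also express, was the 1 marker higher at 4 hpi (0.80). It was 3.03 higher at 1 dpi and 2.32 higher at 3 dpi, the largest change of this list at 3 dpi. The leukocyte markers were also higher at those times. The markers podxl, hand2 and gata5 were not called at 3 dpi.

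Many fibroblast and mural genes that epicardium-derived cells are known to express were higher from 1 to 14 dpi. Of 26 tested, 10 were higher at 1 dpi (22% of all features), 21 at 3 dpi (20.7%), 17 at 7 dpi (14.5%), 15 at 14 dpi (9.39%) and 2 at 90 dpi (11.2%). From 1 to 14 dpi 0 were lower, and at 90 dpi 1 was, beside 7.68% of all features. It was the transcription factor gene snai2 (-0.75, adjusted p = 0.0204), lost without control replicate 2 or 3 or 90 dpi replicate 2 or 3 (adjusted p from 0.0592 to 0.0906). The 2 higher at 90 dpi, fn1a (0.48) and col12a1a (0.64), were both lost without 90 dpi replicate 2 (adjusted p = 0.225 and 0.208) or without control replicate 1 or 2 (adjusted p from 0.104 to 0.134), col12a1a also without 90 dpi replicate 1 and fn1a without 90 dpi replicate 3. The median change at 3 dpi was 1.20 against 0.015 over all tested features. Fibronectin, from fn1a, was the largest at 3 dpi, with pools of 6.48, 6.53 and 6.82 in controls and 11.7, 11.7 and 11.7 at 3 dpi, a change of 5.08 ± 0.16 (adjusted p = 3.75e-12). The collagen-binding proteoglycan gene lum rose by 4.00 ± 0.25, from a control signal of 3.87 to 3.90 below the array median, and the collagen cross-linking enzyme gene loxa by 3.62 from 4.79 to 5.00. The collagen genes col12a1a and col1a1a rose by 3.14 and 2.34. At 4 hpi 7 of the 26 were lower and 4 higher, beside 17.5% and 21.3% of all features. Among the lower were the growth factor receptor gene pdgfra (-1.23), the mural receptor gene notch3 (-1.26) and col1a2 (-1.26). The gene myh11a, of a smooth muscle myosin, was 1.33 higher. Also higher at 4 hpi was pdgfrb (0.32), lost after quantile normalization (adjusted p = 0.236), after centring and without control replicate 1 or 2 or 4 hpi replicate 1 or 2. The call of prrx1a (0.73) was lost without control replicate 1 or 4 hpi replicate 2 (adjusted p = 0.0812 and 0.0547). After quantile normalization col1a1a, fn1a and cspg4 were called lower too (adjusted p = 0.0349, 0.0418 and 0.0485).

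The secreted factors listed for the epicardium moved both ways, and which cells made them was not tested. At 4 hpi 5 of 11 tested were lower and 2 higher, beside 17.5% and 21.3% of all features. The growth factor gene fgf17 (-1.42), the matrix linker genes hapln1a (-1.23) and hapln1b (-0.98) and the chemokine gene cxcl12a (-1.10) were lower, and the guidance factor gene sema3aa was 2.11 higher (adjusted p = 1.03e-06). At 3 dpi 6 were higher and 1 lower, when 20.7% and 14.9% of all features were. The growth factor gene igf2b was higher at all 6 times, from 0.56 at 4 hpi, a call lost without 4 hpi replicate 2 (adjusted p = 0.0863), to 1.73 at 3 dpi and 0.76 at 90 dpi, and at 14 dpi the call was lost without 14 dpi replicate 3 (adjusted p = 0.0577). The angiogenic factor gene vegfaa was lower at 1 dpi (-0.95) and 3 dpi (-1.68).

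**Figure D3:**
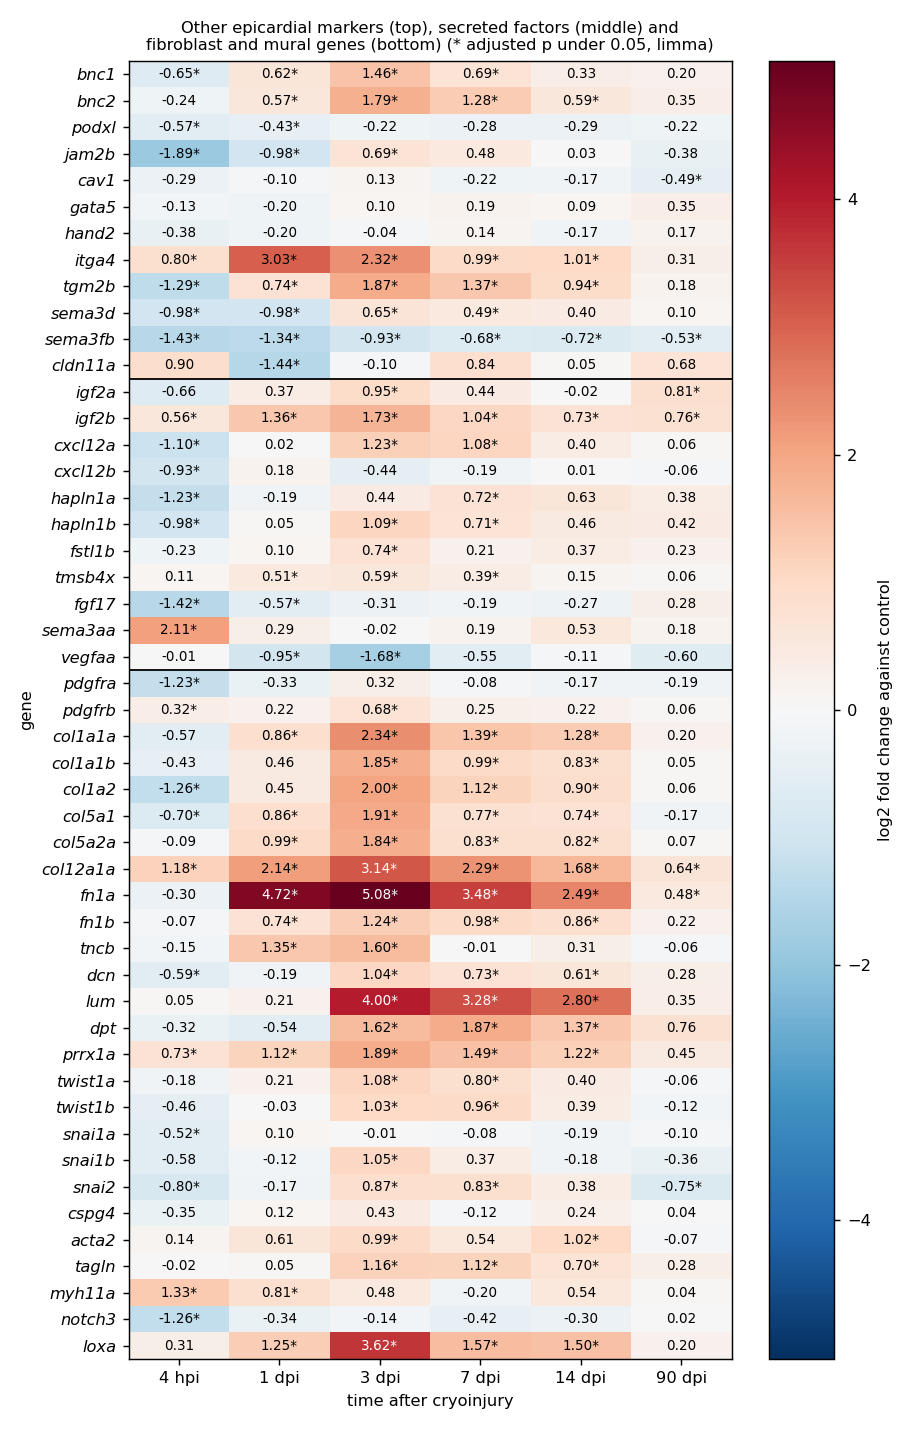
Log2 fold change against control hearts (colour and number) at 6 times for the tested epicardial markers beyond the members (top), secreted factors (middle) and fibroblast and mural genes (bottom), 3 pools per group, an asterisk marking an adjusted p under 0.05 (limma). Of the 26 fibroblast and mural genes 21 are higher at 3 dpi and 2 at 90 dpi, beside 20.7% and 11.2% of all features.

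Of the members, the synthesis genes aldh1a2, rdh10a and rdh10b were higher at 4 hpi, when tcf21 and tbx18 were at their lowest. Other enzymes of retinol and retinal metabolism, given below, split in direction at that time. Aldh1a2 makes retinoic acid from retinal. Its signal was 9.48, 9.49 and 9.47 in controls, 10.7, 10.7 and 10.8 at 4 hpi, 10.8, 10.8 and 11.0 at 1 dpi, then 11.0, 10.8 and 11.0 at 3 dpi. The 7 dpi pools read 10.4, 10.6 and 10.1, the 14 dpi pools 9.95, 9.71 and 10.5, and the 90 dpi pools 9.77, 8.93 and 9.48. Every pool from 4 hpi to 14 dpi was above every control pool, and at 90 dpi they overlapped. The change was 1.24 ± 0.20 at 4 hpi (adjusted p = 0.000107), or 2.36-fold, 1.38 at 1 dpi, 1.45 at 3 dpi (adjusted p = 1.94e-05) and 0.86 at 7 dpi (adjusted p = 0.00496). The value of 0.57 at 14 dpi was not called (adjusted p = 0.0675) except without 14 dpi replicate 2 (0.73, adjusted p = 0.0315). At 90 dpi the difference from control was -0.09, with a 95% interval of -0.51 to 0.33.

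The retinol dehydrogenase genes had their highest group mean at 4 hpi. The rdh10b signal was 7.01, 6.71 and 6.76 in controls, 8.40, 8.50 and 8.79 at 4 hpi and 7.31, 7.74 and 7.72 at 1 dpi. It lay between 6.62 and 7.20 in the pools of 3 to 14 dpi and was 6.21, 6.30 and 6.38 at 90 dpi, below every control pool. The change was 1.74 ± 0.14 at 4 hpi (adjusted p = 1.20e-07), or 3.34-fold, and 0.76 at 1 dpi (adjusted p = 0.000335). From 3 to 14 dpi it was between -0.02 and 0.29 and not called. The 90 dpi fall of -0.53 ± 0.14 (adjusted p = 0.0155) was lost without control replicate 1 (adjusted p = 0.0625), without 90 dpi replicate 2 (adjusted p = 0.0510) and in a fit of only the 6 arrays compared (adjusted p = 0.0651).

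The rdh10a signal was 7.64, 7.57 and 7.71 in controls and 8.57, 8.39 and 8.84 at 4 hpi, with no overlap. The rise of 0.96 ± 0.29 (adjusted p = 0.0146) was lost without 4 hpi replicate 3 (0.84, adjusted p = 0.0583). No later change of rdh10a was called. The pools were wide apart at 7 dpi (7.66, 8.05 and 6.89) and at 14 dpi (7.21, 7.12 and 8.45). The difference rdh10b minus rdh10a was -0.81 ± 0.16 in controls (SD, n = 3) and rose by 0.78 at 4 hpi and by 0.52 at 1 dpi, each with an exact permutation p = 0.1, the smallest possible.

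The gene for the breakdown enzyme, cyp26b1, was called from 1 dpi on and was still higher at 90 dpi. Its signal was 4.24, 4.47 and 4.73 in controls, all below the array median, 5.23, 5.86 and 4.72 at 4 hpi and 7.79, 6.70 and 7.75 at 1 dpi. The pools read 8.03, 7.45 and 6.85 at 3 dpi, 6.83, 6.80 and 5.85 at 7 dpi, 6.61, 7.28 and 8.47 at 14 dpi, then 5.77, 7.77 and 7.38 at 90 dpi. All pools from 1 to 90 dpi lay above all controls, and the SD reached 0.94 at 14 dpi and 1.06 at 90 dpi, the largest of any member and group. The change was 2.93 ± 0.52 at 1 dpi (adjusted p = 0.000233), 2.96 at 3 dpi, 2.01 at 7 dpi (adjusted p = 0.00983), 2.97 at 14 dpi (adjusted p = 0.00119) and 2.49 at 90 dpi (adjusted p = 0.00412), with a 95% interval of 1.40 to 3.59 at 90 dpi. Each of these calls held in all fits that left out a replicate. At 4 hpi the value of 0.79 was not called (adjusted p = 0.250). The other breakdown enzyme genes on the array, cyp26a1 and cyp26c1, stayed at or below 4.46 and 4.23 and were not tested.

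The gene for a retinoic acid receptor, raraa, was called at 1 time. Its pools lay between 6.79 and 7.97 over all groups. The value of 0.60 ± 0.19 at 3 dpi (7.79, 7.71 and 7.97 against 7.28, 7.34 and 7.04 in controls) was called (adjusted p = 0.0188). That call was lost without control replicate 3 (adjusted p = 0.0787), without 3 dpi replicate 3 (adjusted p = 0.0745) and after quantile normalization (adjusted p = 0.0603).

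**Figure D4:**
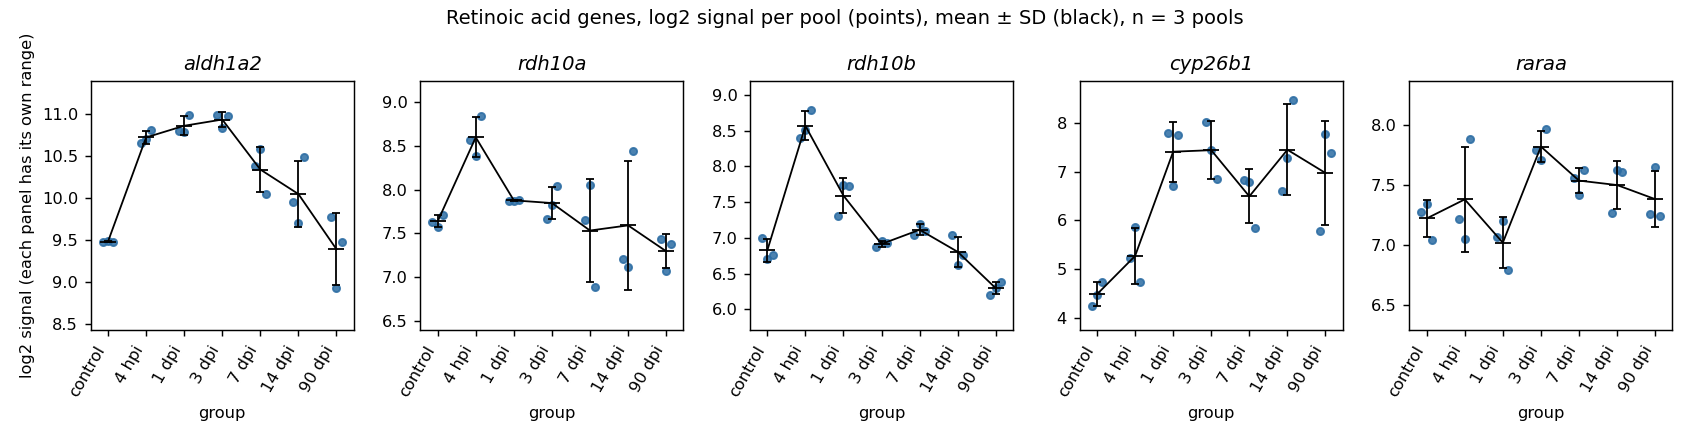
Log2 signal (vertical axes, each with its own range) of aldh1a2, rdh10a, rdh10b, cyp26b1 and raraa in each pool of 5 ventricles (points) by group, with the group mean and SD in black (n = 3 pools). The 4 hpi pools of rdh10b, at 8.40 to 8.79, are its highest, and the pools of cyp26b1 at 90 dpi, from 5.77 to 7.77, are above its controls at 4.24 to 4.73.

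In the order of levels, also taken from the group means and given as a description, the aldh1a2 groups began with 3 dpi, 1 dpi and 4 hpi. Then came 7 dpi, 14 dpi, control and 90 dpi, and no step between neighbours was called. The rdh10b order was 4 hpi, 1 dpi, 7 dpi, 3 dpi, control, 14 dpi and 90 dpi, with called steps from 4 hpi to 1 dpi (0.98, adjusted p = 3.53e-05), from 1 to 7 dpi (0.48, adjusted p = 0.0243) and from 14 to 90 dpi (0.51, adjusted p = 0.0285). In rdh10a no step was called, the widest being from 4 hpi to 1 dpi (0.72, adjusted p = 0.0648). The cyp26b1 groups at 14, 3, 1, 90 and 7 dpi followed each other within the spread, and neither the step down to 4 hpi (1.23, adjusted p = 0.0697) nor that from 4 hpi to control was called. In raraa no step between neighbours was called.

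Of the retinoid carriers, 6 of 14 genes on the array were tested. At 1 dpi 3 were higher and 3 lower, beside 22% and 16.5% of all features. The intracellular retinoic acid carriers rose, crabp2a by 2.05 at 1 dpi and crabp2b by 1.76 at 4 hpi and 2.00 at 3 dpi. The control signal of crabp2b was 4.37 to 4.64, below the array median. The control mean of crabp2a, 5.39, was under the filter value of 6. The retinol carriers fell, rbp4, known from plasma, to -1.80 at 1 dpi (adjusted p = 5.20e-07) and rbp7b to -1.83 at 1 dpi and -1.68 at 14 dpi, where its means of 4.84 and 4.98 lay below the array median. The retinol carrier gene rbp2a fell by 1.41 at 1 dpi and fell by 2.13 at 3 dpi. The membrane receptor genes for retinol uptake, stra6 and stra6l, stayed below 4.90.

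Other enzymes of retinol and retinal metabolism split in direction, with 3 higher and 5 lower of 11 tested at 4 hpi, beside 21.3% and 17.5% of all features, and 4 higher and 4 lower at 1 dpi, beside 22% and 16.5%. Of the 4 higher at 1 dpi, sdr16c5a (0.39) and sdr16c5b (0.32) were both lost after quantile normalization (adjusted p = 0.191 and 0.298), without control replicate 1 (adjusted p = 0.136 and 0.0866) and without 1 dpi replicate 1 (adjusted p = 0.103 and 0.0616), sdr16c5a also without 1 dpi replicate 2 and sdr16c5b also without 1 dpi replicate 3. Of the 4 lower, rdh14b (-0.60) was lost without 1 dpi replicate 2 (adjusted p = 0.0769), and after quantile normalization rdh14a was called lower too (adjusted p = 0.0117). At 3 dpi the gene of largest change was dhrs3a, whose product reduces retinal back to retinol. Its signal was 6.55, 6.60 and 7.07 in controls, 5.40, 5.42 and 5.10 at 4 hpi, 9.08, 8.70 and 8.08 at 1 dpi and 9.56, 9.67 and 9.69 at 3 dpi. At 90 dpi the pools still read 7.69, 8.02 and 8.46. It was thus below all controls at 4 hpi (-1.43 ± 0.29, adjusted p = 0.000843) and above them at 1 dpi (1.88), 3 dpi (2.90, adjusted p = 5.93e-07) and 90 dpi (1.31, adjusted p = 0.00571). Its copy dhrs3b fell by 1.17 at 4 hpi and fell by 0.57 at 1 dpi (adjusted p = 0.00273), and was not called from 3 dpi on. The alcohol dehydrogenase gene adh8a fell by 1.73 at 4 hpi and fell by 2.55 at 1 dpi, to a mean of 4.79 below the array median, where the size of the fall is uncertain. At those times adh5 changed by -0.98 and -0.84. The gene adh8b was 1.36 higher at 4 hpi, from a control mean of 5.43, under the filter value of 6. The dehydrogenase gene rdh12l was 2.22 higher at 1 dpi, from a control mean of 5.19 at the array median. The paralog aldh1a3 stayed at or below 4.42.

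Of 12 other retinoic acid receptors, partner receptors and cofactors tested, 2 were higher and 4 lower at 4 hpi, when 21.3% and 17.5% of all features were. At 1 dpi 1 was higher and 4 lower, beside 22% and 16.5% of features, and at 3 dpi 1 was higher and 2 lower, beside 20.7% and 14.9%. Of the calls higher at 4 hpi, that of rxrga was lost without control replicate 3 or 4 hpi replicate 1 (adjusted p = 0.0983 and 0.0778). That of nrip1b was lost without 4 hpi replicate 3 (adjusted p = 0.0541). Single pools also decided the lower calls of rxrbb and ncor1 at 1 dpi and of ncoa3 at 3 dpi. After quantile normalization ppardb was called lower too at 1 dpi, and rxrab and nrip1b at 3 dpi. The retinoid X receptor gene rxraa, whose product pairs with retinoic acid receptors, was 7.65, 7.89 and 7.85 in controls and 5.83, 5.83 and 5.47 at 4 hpi. The change was -2.09 ± 0.15 (adjusted p = 3.53e-08), and the pools read 7.72, 7.79 and 7.68 at 1 dpi. It was called lower again at 7 dpi (-0.63, adjusted p = 0.00530) and 14 dpi (-0.62, adjusted p = 0.0100). The 90 dpi value of -0.42 was not called (adjusted p = 0.0572). Its copy rxrab (-1.34, to a mean of 4.79 below the array median) and the corepressor gene ncor1 (-0.70) fell at 4 hpi. So did rarab (-0.59), the paralog of the member raraa. In the opposite direction, rxrga was 2.01 higher at 1 dpi (adjusted p = 4.56e-06), from a control mean of 5.64, under the filter value of 6.

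Of 16 retinoic acid response genes on the array 8 were tested, 5 of them shared with the lists above. At 4 hpi 5 were lower and 0 higher, beside 17.5% and 21.3% of all features, with a median change of -0.59. At 1 dpi 3 were higher, dhrs3a, crabp2a and tgm2b, and 1 lower, dhrs3b, beside 22% and 16.5% of features. At 3 dpi dhrs3a, crabp2a and tgm2b were again higher and 0 were lower, beside 20.7% and 14.9%. The 4 hpi falls were in dhrs3a, tgm2b, dhrs3b, meis2a (-0.60) and rarab (-0.59). The homeobox genes hoxb5a, hoxb5b and hoxa5a did not pass the signal filter.

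**Figure D5:**
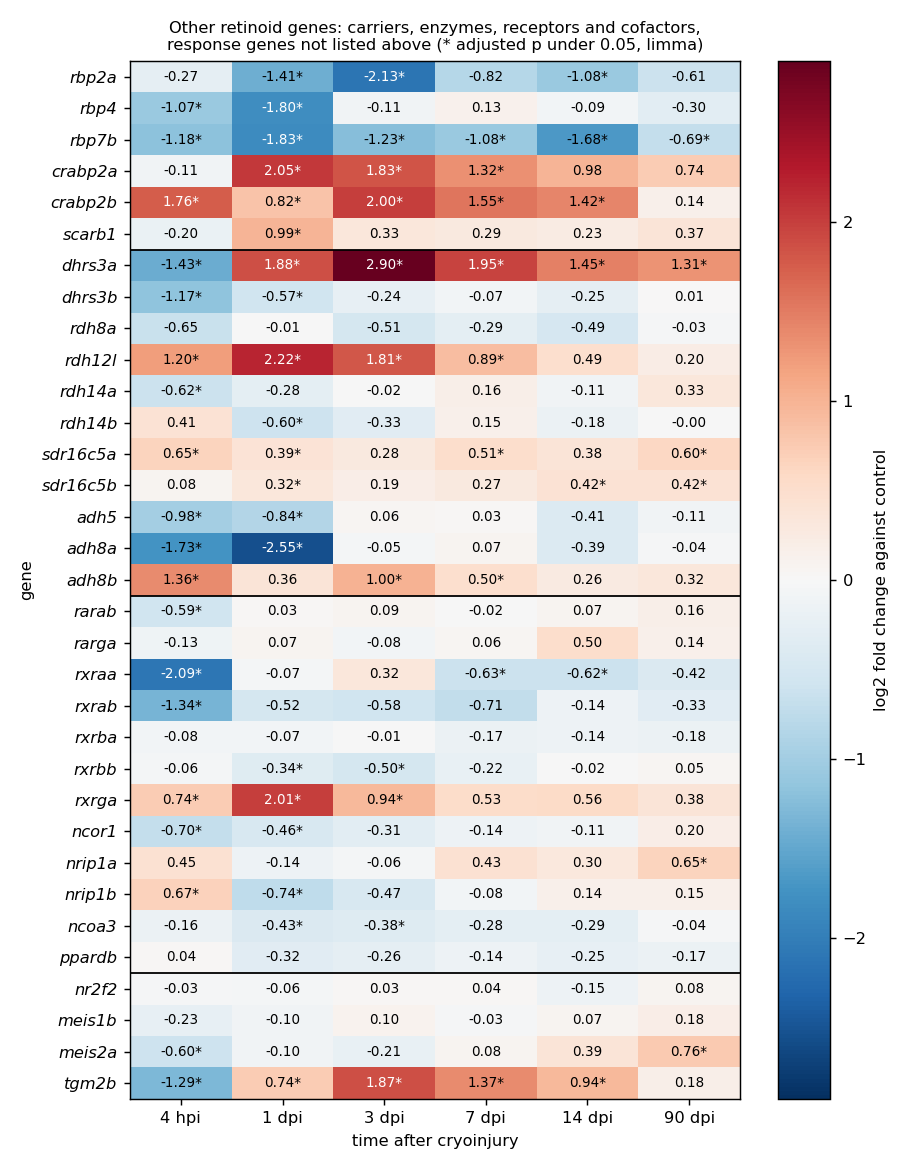
Log2 fold change against control hearts (colour and number) at 6 times for the other tested retinoid genes, from the top the carriers, the enzymes, the receptors and cofactors and the remaining response genes, 3 pools per group, an asterisk marking an adjusted p under 0.05 (limma). The gene dhrs3a is at -1.43 at 4 hpi and 2.90 at 3 dpi, and rxraa is at -2.09 at 4 hpi.

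Between successive times after injury, the called rises of the members all lay between 4 hpi and 3 dpi. At 4 hpi itself aldh1a2, rdh10a and rdh10b were already called higher than in controls. From 4 hpi to 1 dpi 5 rose and 1 fell, when 19.4% of all tested features rose and 15% fell. The rises were in tcf21 (1.07), tbx18 (1.75), wt1a (0.91), wt1b (2.08) and cyp26b1 (2.14), while rdh10b fell by 0.98. From 1 to 3 dpi 6 rose and 1 fell, when 2.72% of all tested features rose and 1.27% fell. The largest rise of that step was in postnb (2.93 ± 0.28, adjusted p = 4.52e-06), followed by tcf21 (1.50, adjusted p = 0.000229), tbx18 (1.14), wt1b (0.96), raraa (0.80) and wt1a (0.76), and rdh10b fell by 0.67. Of these 7 calls, that of tbx18 was lost without 1 dpi replicate 2 (adjusted p = 0.0530), that of rdh10b without 1 dpi replicate 2 or 3 (adjusted p = 0.0501 and 0.0521), and that of raraa without 1 dpi replicate 3 or 3 dpi replicate 1 or 3 (adjusted p = 0.101, 0.0516 and 0.0882). In a fit of only the 6 arrays compared, wt1a and rdh10b were not called (adjusted p = 0.0724 and 0.0662).

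The later steps were falls only. From 3 to 7 dpi 2 fell, when 2.11% of all tested features rose and 4.86% fell. These were wt1b (-0.996, adjusted p = 0.00345) and wt1a (-0.56), the latter lost without any 1 of the 6 pools (adjusted p from 0.0789 to 0.137). From 7 to 14 dpi 1 fell, beside 0.813% of features rising and 1.57% falling. It was wt1b, which fell by 0.71 (adjusted p = 0.0469), lost without any 1 of the 6 pools (adjusted p from 0.0586 to 0.155). From 14 to 90 dpi 5 fell, when 4.29% of all tested features rose and 7.03% fell. The changes of postnb (-1.77 ± 0.28, adjusted p = 0.00146) and of wt1b (-1.39 ± 0.18, adjusted p = 0.000539) held without each pool, but in a fit of only the 6 arrays compared neither was called (adjusted p = 0.0613 and 0.0567). Those of wt1a (-0.53), aldh1a2 (-0.66) and rdh10b (-0.51) were lost without 14 dpi replicate 1 or 3 or 90 dpi replicate 2, and without 1 or more of the other pools for wt1a (90 dpi replicate 1 or 3), aldh1a2 (90 dpi replicate 3) and rdh10b (90 dpi replicate 1), with adjusted p from 0.0541 to 0.206.

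Likeness between genes was described by Pearson r over the 21 arrays, among 11687 named genes. The arrays share their groups, so r mostly follows the time course, and no test was made. The gene most like tbx18 was tcf21 (r = 0.957, and 0.737 after the group means were removed), and tcf21 was most like lpar1 (0.972). For wt1b the nearest were tram2 (0.968), tuba1a (0.967) and gpx7 (0.966), followed by rcn3 and fn1a, and for wt1a cxadr (0.945), gpx7, olfml3b, paqr6 and rspo3. The nearest to postnb were ror1 (0.960), lum (0.957) and mfap2 (0.954). For aldh1a2 they were cd276 (0.957), ccl34a.4 (0.950) and lifrb (0.939), for rdh10b rln3a (0.942), for rdh10a batf2 (0.873), for cyp26b1 ptprq (0.897) and for raraa mmrn2a (0.802). Between members, wt1a and wt1b correlated at 0.913, which became -0.031 with the group means removed, and tcf21 and rdh10b at -0.790, which became -0.700.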

How the data were processed

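Total RNA of 21 pools was labelled and hybridised to Affymetrix Zebrafish Gene 1.0 ST arrays. The authors made the deposited log2 signals in Partek Genomics Suite, by robust multi-array averaging that included a correction for GC content, and these were used unchanged, with 0 unmapped columns. Features were named from the array's annotation table (20806 with 1 symbol, 855 with several, 53551 with none), and the feature of highest mean stood for a gene. List genes missing from that table were looked up by gene ID through RefSeq (0 matched), no coordinates were used, and no sequence is shown. Of 75212 features, the 35783 with a log2 signal above 6 in at least 1 array entered 1 limma model (7 group means, 14 residual degrees of freedom), with Benjamini-Hochberg adjustment within a comparison. Precision is limited by the number of arrays, and an exact test of 3 against 3 cannot go below p = 0.1.

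The members and the gene lists were chosen with earlier results of these data known. The genes named are the members, up to 5 called list genes of largest change per list and time, the genes called in opposite directions and up to 5 genes most like a member. Other list genes (some not called or not tested) and further changes of genes so named were added after their values were seen. The model was tried on simulated data for 1 dpi against control (35783 features), with normal noise and 100 features changed at each size. It recovered 58% of log2 changes of 1 and 97% of changes of 2, with 5 wrong calls. In the data 22% of features were called higher and 16.5% lower at 1 dpi, a much larger share. The adjusted threshold depends on that share, so these rates need not hold for the data. Alternatives covered the filter, quantile normalization, centring, the variance model, fits of 6 arrays, replicate blocks, thresholds and leaving out each pool. R 4.3.3, limma 3.58.1, Python 3.11.15 and matplotlib 3.10.9 were used.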

Additional observations from a re-analysis of the deposited data

Results flagged for a closer look

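Several genes were called lower than control at one time and higher at another. How many of all tested features switched in this way was not computed. The counts of such members and list genes are therefore not read as a trait of these genes. Since they were picked for these calls, made against the same controls, the differences between their times are a description with no test. Among the members, tcf21 was 2.57 higher at 3 dpi than at 4 hpi and 1.50 higher than at 1 dpi. The gene postnb was higher than at 4 hpi by 3.48 at 3 dpi, 3.01 at 7 dpi and 2.29 at 14 dpi. The change of rdh10b ran the other way, with -2.27 at 90 dpi against 4 hpi and -1.29 against 1 dpi. The 1 dpi call of tcf21, the 4 hpi call of postnb and the 90 dpi call of rdh10b are those that single pools decide, as given with each gene above.

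In the gene lists 14 genes showed the same kind of switch. From 4 hpi to 3 dpi the epicardial markers bnc1, jam2b and tgm2b gained 2.11, 2.58 and 3.16. Over the same span the fibroblast genes col1a2, col5a1, dcn and snai2 gained 3.26, 2.61, 1.63 and 1.67, the secreted factors cxcl12a and hapln1b gained 2.33 and 2.07, and dhrs3a gained 4.33. The remaining values were 1.63 for sema3d from 1 to 3 dpi, 1.95 for hapln1a from 4 hpi to 7 dpi, 1.35 for meis2a from 4 hpi to 90 dpi and -1.41 for nrip1b from 4 hpi to 1 dpi. The call of jam2b at 3 dpi was lost without control replicate 3 (adjusted p = 0.137) or any of the 3 dpi pools, that of hapln1a at 7 dpi without control replicate 1 (adjusted p = 0.172) or 2 or any of the 7 dpi pools, and that of nrip1b at 4 hpi without 4 hpi replicate 3 (adjusted p = 0.0541).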

How the results depend on the processing

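Of 110 member values over 11 comparisons, 51 were called. Recomputed 1430 times, 33 values changed sign, none of them called under either setting, and no called direction was reversed. The share of all tested features called was taken only in the main fit at an adjusted p under 0.05. Counts at other settings or without a pool thus describe the members alone and are not set against the array. At an adjusted p under 0.001 the members called were 4 at 4 hpi, 4 at 1 dpi, 5 at 3 dpi, 2 at 7 dpi, 1 at 14 dpi and 0 at 90 dpi. They were 5 for 1 dpi against 4 hpi, and 2, 0, 0 and 1 for 3 dpi against 1 dpi, 7 against 3, 14 against 7 and 90 against 14. For the other settings only the counts that changed by the largest factor are given. With a 1.6-fold minimum the members called were 1 at 90 dpi, 1 for 7 against 3 dpi and 2 for 90 against 14 dpi. In fits of 6 arrays they were 1 at 90 dpi, 0 for 14 against 7 dpi and 0 for 90 against 14 dpi. Without the signal filter they were 1, 0 and 3 for 7 against 3, 14 against 7 and 90 against 14 dpi, and after quantile normalization 1 and 3 for 7 against 3 and 90 against 14 dpi. Of the 50 genes listed as most like a member, 15 remained with Spearman's rho and 2 with the group means removed.

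Leaving out each pool gave 4 to 6 members called at 4 hpi, 6 to 8 at 1 dpi, 6 to 7 at 3 dpi, 5 to 5 at 7 dpi, 3 to 4 at 14 dpi and 1 to 3 at 90 dpi. Between successive times the ranges were 6 to 7, 5 to 7, 1 to 1, 0 to 0 and 2 to 5, and 2 to 3 members were called in opposite directions. Alternatives for the lists, chosen after seeing the data (quantile normalization, centring and each pool left out), gave 6 to 7 epicardial markers lower at 4 hpi and 5 to 6 higher at 3 dpi, 20 to 22 fibroblast and mural genes higher at 3 dpi, 5 to 6 secreted factors and 5 to 5 response genes lower at 4 hpi, with 0 reversals.

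The deviations of pools with the same replicate number correlated at r from -0.151 to 0.201 (median 0.011, 13 of 63 pairs above 0.1), and those with other numbers at r from -0.206 to 0.221 (16 of 126 above 0.1). The best match of 12 of 21 pools had their own number, against 7 of 21 at the share of such pools, 6 of 18, among those of other groups. The design speaks of separate experiments without tying the numbers to them, so the pools were not taken as paired. With the number as a replicate block, the members called for 14 against 7 dpi went from 1 to 0 (wt1b, adjusted p = 0.0642), and no other call of a member changed. The alternative of a gene's next feature was not run, since 0 members have more than 1. The cause of these differences between settings was not tested. Signals near the array median of 5.138 to 5.196 limit the fold changes of genes with a group mean at or below it. Here these were cyp26b1, postnb, lum, loxa, bnc1, jam2b, sema3fb, crabp2b, rbp7b, rdh12l, adh8a and rxrab, and the markers mpx, cxcr3.2, lyz and elnb.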
